A study of Mus musculus with 8 samples.

Results

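The genes described here are 8 members of the cholesterol synthesis pathway and its SREBP2 control: Hmgcs1, Idi1, Fdft1, Sqle, Lss, Cyp51, Srebf2 and Insig1. They were taken by symbol from the 24421 genes in the deposited count table, and were chosen with earlier results of these data known. All 8 passed the filter on low counts that left 12744 genes for testing. They were measured by RNA sequencing in mouse HSPCs, the haematopoietic stem and progenitor cells that form blood, taken from mice after a primary transplant. Cells labelled dKO, for double knockout, are by the series title without beta-catenin (Ctnnb1), the effector of Wnt signalling, and without Hoxa9, a homeobox factor of stem and progenitor cells. There were 4 groups of 2 libraries: wild-type cells with an empty vector (WTEV), dKO cells with an empty vector (dKOEV), dKO cells with a catalytically dead PRMT1 mutant (dKOMut) and dKO cells with wild-type PRMT1 (dKOPRMT). PRMT1 is the main enzyme of asymmetric arginine dimethylation. The mice's age and strain, the number of animals behind a library, the vector and the way the genes were deleted are not stated in the labels. Nor do the labels say that replicates are separate animals or cultures, so p-values here rest on a spread between libraries that may be technical.

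Cholesterol is built from acetyl-CoA through mevalonate, isoprenoid pyrophosphates, squalene and lanosterol. Its enzymes share the transcription factor SREBP2, encoded by Srebf2. When membrane sterol is low, SCAP carries SREBP2 from the endoplasmic reticulum to the Golgi, where it is cut and released to the nucleus. When sterol is plentiful, the INSIG proteins hold SCAP back. Insig1 is itself an SREBP2 target and so part of a feedback loop. The transcript of Srebf2 does not measure how much of its protein has been cut. In blood-forming cells, sterol supply is known for its part in membrane growth and in sterol efflux through ABC transporters.

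The labels were checked in every library. Prmt1 stood at 188 to 194 CPM (counts scaled to library size) in the 4 libraries with an empty vector, at 1744 and 1758 CPM in dKOMut and at 981 and 976 CPM in dKOPRMT. Of the dKOMut pair, replicate 2 carries a genotype label naming PRMT2, but its title, and its Prmt1 level, group it with replicate 1. Hoxa9 was at 18.2 and 17.2 CPM in WTEV and at 1.87 to 5.79 CPM in the 6 dKO libraries. Ctnnb1 was at 444 and 455 CPM in WTEV and still at 360 to 391 CPM in the 6 libraries labelled dKO. The labels do not say which exons were deleted, so these whole-gene counts cannot show whether beta-catenin was lost, and dKO is used here as a label. The progenitor receptor Kit and the leukocyte antigen Ptprc were expressed throughout, at 138 to 171 CPM and 409 to 473 CPM. Xist was at 159 and 121 CPM in WTEV and at 0 counts in every dKO library, while the Y-linked Ddx3y was at 0 counts in WTEV and at 58.2 to 68.5 CPM in the dKO libraries. Genotype and sex therefore cannot be told apart in any comparison with WTEV. None of the 8 genes lies on a sex chromosome. Library totals ran from 15531344 to 22329749 counts.

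The promoters of 4 of the 8 genes are shown because the genes share a regulator and because the pattern of exact matches to the letters searched differs among them. RefSeq promoter windows on GRCm38.p6, reaching from 250 bases before to 50 bases after the annotated start, were matched for 6 genes, and Sqle and Fdft1 had no entry. Capitals mark every match to the sterol regulatory element TCACNCCAC, its core CACNCCAC, the NF-Y box CCAAT or the E-box CACGTG, searched on both strands, with the other-strand form ATTGG standing for CCAAT. The core lies within the full element. The windows are Hmgcs1 at chr13:119690101-119690400 on the plus strand, Insig1 at chr5:28071162-28071461 on the plus strand, Cyp51 at chr5:4104648-4104947 on the minus strand and Srebf2 at chr15:82147019-82147318 on the plus strand, each written 5′ to 3′ along its gene.
Hmgcs1: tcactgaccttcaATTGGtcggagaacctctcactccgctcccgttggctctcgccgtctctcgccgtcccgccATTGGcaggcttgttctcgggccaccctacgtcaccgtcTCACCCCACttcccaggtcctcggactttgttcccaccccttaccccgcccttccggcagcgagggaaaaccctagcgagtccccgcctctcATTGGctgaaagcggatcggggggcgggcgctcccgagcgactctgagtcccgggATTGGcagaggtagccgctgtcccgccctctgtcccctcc
Insig1: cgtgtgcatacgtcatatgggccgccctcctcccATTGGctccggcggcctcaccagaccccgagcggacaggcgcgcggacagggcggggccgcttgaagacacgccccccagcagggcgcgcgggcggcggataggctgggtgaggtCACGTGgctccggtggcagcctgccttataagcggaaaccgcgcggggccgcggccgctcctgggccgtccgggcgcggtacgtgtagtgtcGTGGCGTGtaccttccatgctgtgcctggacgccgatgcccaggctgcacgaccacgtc
Cyp51: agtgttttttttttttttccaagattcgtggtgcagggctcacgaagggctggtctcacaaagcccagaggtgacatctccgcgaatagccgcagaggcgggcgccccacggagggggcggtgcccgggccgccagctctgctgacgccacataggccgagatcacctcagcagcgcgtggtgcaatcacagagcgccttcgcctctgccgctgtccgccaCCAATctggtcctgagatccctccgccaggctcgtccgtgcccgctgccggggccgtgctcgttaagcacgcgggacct
Srebf2: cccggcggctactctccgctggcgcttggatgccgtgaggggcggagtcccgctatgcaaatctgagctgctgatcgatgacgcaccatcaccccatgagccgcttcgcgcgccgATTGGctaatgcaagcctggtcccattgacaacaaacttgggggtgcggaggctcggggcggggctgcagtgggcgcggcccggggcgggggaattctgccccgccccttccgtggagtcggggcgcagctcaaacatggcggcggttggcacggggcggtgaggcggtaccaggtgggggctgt

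The full element was found in 1 of the 6 windows, that of Hmgcs1, as TCACCCCAC with its first base 137 bases before the start. The bases just after the start were sought in transcripts of a second annotation, GENCODE. They were found for Cyp51, Idi1, Insig1 and Srebf2, but not for Hmgcs1 or Lss. The full element occurs in 1.24% of 32851 promoter windows and in 0 of 14 windows of the other cholesterol enzymes. The core was found in Hmgcs1 and, as GTGGCGTG on the other strand, in Insig1, so in 2 of 6 windows against 6.24% of all windows. CCAAT was found in 6 of 6 windows and in 11 of 14 of the other enzymes, against 37.41% of all windows. Hmgcs1 held 4 copies of it, a number reached by 1.062% of windows. CACGTG was found in 1 of the 6 windows, that of Insig1, and in 7.15% of all windows. These matches describe the letters of a short window and say nothing of what is bound there. Only exact matches were counted, so a window without one may still hold a near match.

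All 8 genes were well expressed in every library. Per kilobase of exon, Srebf2 had the highest group means at 90.7 to 96.1 CPM per kb, followed by Hmgcs1 at 70.1 to 81.0 CPM per kb. Sqle was at 63.6 to 73.5 CPM per kb, Insig1 at 53.4 to 62.3 and Cyp51 at 43.2 to 55.3. The lowest 3 were Idi1 at 29.5 to 36.8 CPM per kb, Fdft1 at 20.03 to 24.8 and Lss at 10.4 to 14.3. The ranges of neighbours in this order overlapped for Sqle with Hmgcs1 and for Cyp51 with Insig1. Differences across the 8 libraries were modest: the ratio of the highest to the lowest library ran from 1.10 for Srebf2 to 1.44 for Lss. By group mean, WTEV was highest for 6 genes (Hmgcs1, Idi1, Sqle, Lss, Cyp51 and Insig1), dKOMut for Fdft1 and dKOEV for Srebf2.

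**Figure D1:**
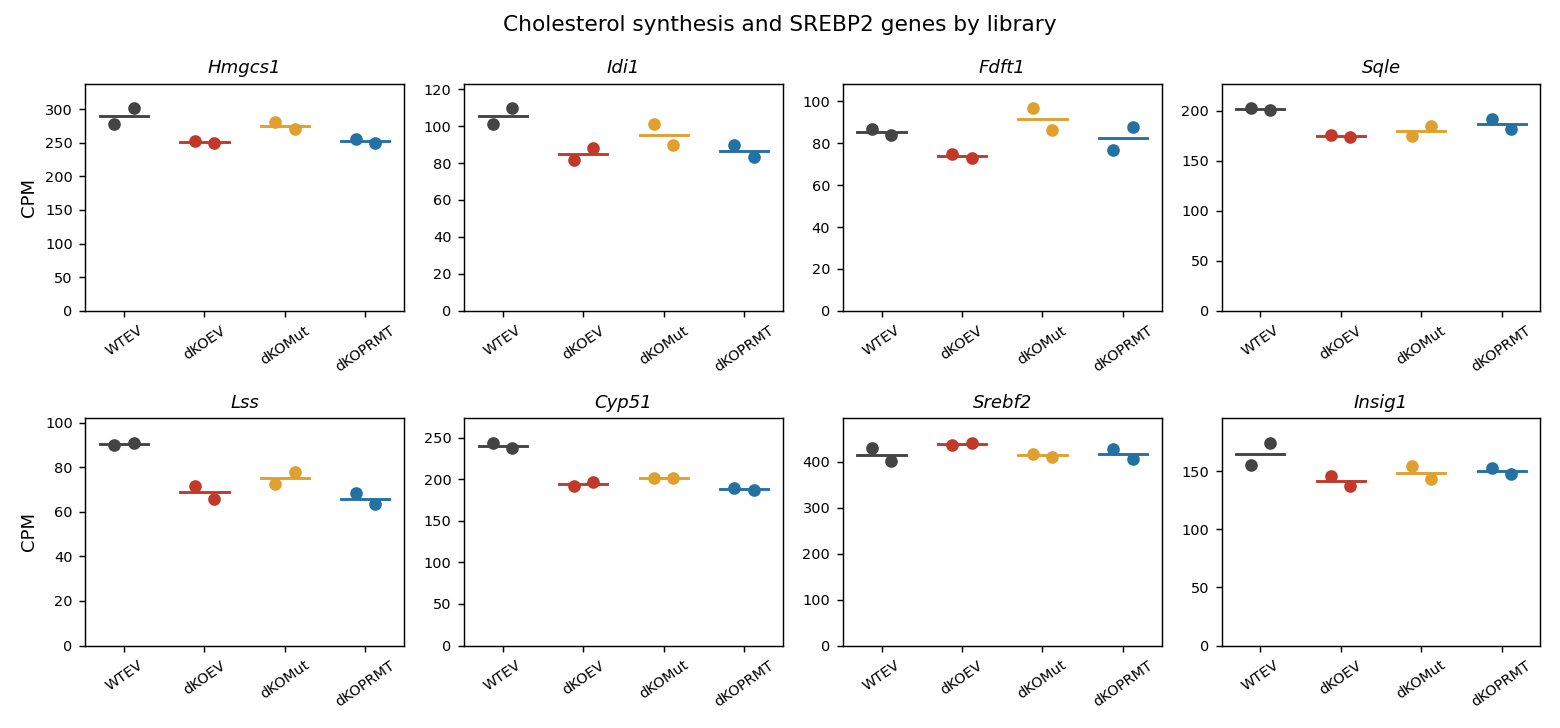
Level of each of the 8 genes in CPM (y axis from 0) in each of the 8 libraries, by group (x axis), with 1 point per library and a bar at the group mean. For Cyp51 the 2 WTEV libraries, at 244 and 237 CPM, sit above the 6 dKO libraries, and for Srebf2 the 8 libraries lie between 403 and 442 CPM.

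The comparison of dKOEV with WTEV asks how these genes differed between the cells labelled double knockout and wild-type cells with the same empty vector. Of the 8 genes 6 fell and 0 rose, by 13.4% to 24.1%, at an adjusted p under 0.05 in edgeR's quasi-likelihood test (Benjamini-Hochberg over all tested genes). Over all tested genes, 7.00% were called lower and 8.44% higher in this comparison. The median log2 fold change was -0.22 over the 8 genes and -5e-04 over all tested genes. No gene rose at an unadjusted p under 0.05 either, nor with DESeq2 or limma voom, each of which called 6 of the 8. In RNA from a cell population, fewer cells of a type and less RNA per cell cannot be told apart.

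The mevalonate steps came first. Hmgcs1 (chromosome 13, 119690351 to 119708260, plus strand, GRCm38), which condenses acetoacetyl-CoA with acetyl-CoA to HMG-CoA, was at 277 and 302 CPM in WTEV and at 253 and 249 CPM in dKOEV. Its WTEV libraries lay above both dKOEV libraries, and it fell by 0.21 ± 0.05 on the log2 scale (SE, n = 2 and 2; edgeR adjusted p = 0.00148). Idi1 (chromosome 13, 8885606 to 8892396, plus strand), which interconverts the pyrophosphates of isopentenol and dimethylallyl alcohol, was at 101 and 110 CPM in WTEV and at 81.4 and 88.0 CPM in dKOEV. The groups were again separate, and it fell by 0.31 ± 0.07 (adjusted p = 0.00187).

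The next steps commit the pathway to sterols and epoxidise squalene. Fdft1 (chromosome 14, 63145151 to 63179578, minus strand), squalene synthase, was at 87.0 and 83.9 CPM in WTEV and at 74.9 and 73.2 CPM in dKOEV. The groups did not overlap, but the difference of -0.21 ± 0.08 did not pass the threshold (adjusted p = 0.0578). Sqle (chromosome 15, 59315092 to 59331193, plus strand), squalene epoxidase, was at 203 and 201 CPM in WTEV and at 176 and 174 CPM in dKOEV. It fell by 0.21 ± 0.05 (adjusted p = 0.00311), with replicates nearly level within each group.

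The enzymes around lanosterol followed, with the steepest fall of the 8 at Lss. Lss (chromosome 10, 76531605 to 76557139, plus strand), which closes the sterol rings, was at 90.0 and 91.0 CPM in WTEV and at 71.7 and 65.9 CPM in dKOEV. It fell by 0.40 ± 0.07 (adjusted p = 0.00015), or 24.1%. Cyp51 (chromosome 5, 4080674 to 4104697, minus strand), the lanosterol demethylase whose promoter is shown above, was at 244 and 237 CPM in WTEV and at 192 and 196 CPM in dKOEV. It fell by 0.31 ± 0.05 (adjusted p = 8.13e-06), or 19.3%.

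The 2 control genes went different ways. Insig1 (chromosome 5, 28071412 to 28078662, plus strand), the sterol-sensing anchor of SCAP, was at 155 and 175 CPM in WTEV and at 146 and 137 CPM in dKOEV. It fell by 0.22 ± 0.06 (adjusted p = 0.00719). Srebf2 (chromosome 15, 82147269 to 82204960, plus strand) was at 430 and 403 CPM in WTEV and at 437 and 442 CPM in dKOEV. Its dKOEV libraries lay just above the WTEV ones, and the difference of 0.08 ± 0.04 did not pass the threshold (adjusted p = 0.225), with a 95% interval from -0.01 to 0.16. The fall in the targets was thus measured beside a Srebf2 transcript with no called change.

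The calls for Lss, Cyp51 and Sqle in this comparison held under all 15 alternatives, while the other 3 rested on single libraries. Without WTEV replicate 2, 3 of the 8 genes fell, and Hmgcs1 (-0.15, adjusted p = 0.119), Idi1 (-0.25, 0.0683) and Insig1 (-0.14, 0.294) were not called. Insig1 was also not called without dKOEV replicate 2 (-0.19, adjusted p = 0.0695). Fdft1 passed the threshold without either dKOMut library (adjusted p = 0.0433 and 0.0488) and with no filter on low counts (0.0353).

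**Figure D2:**
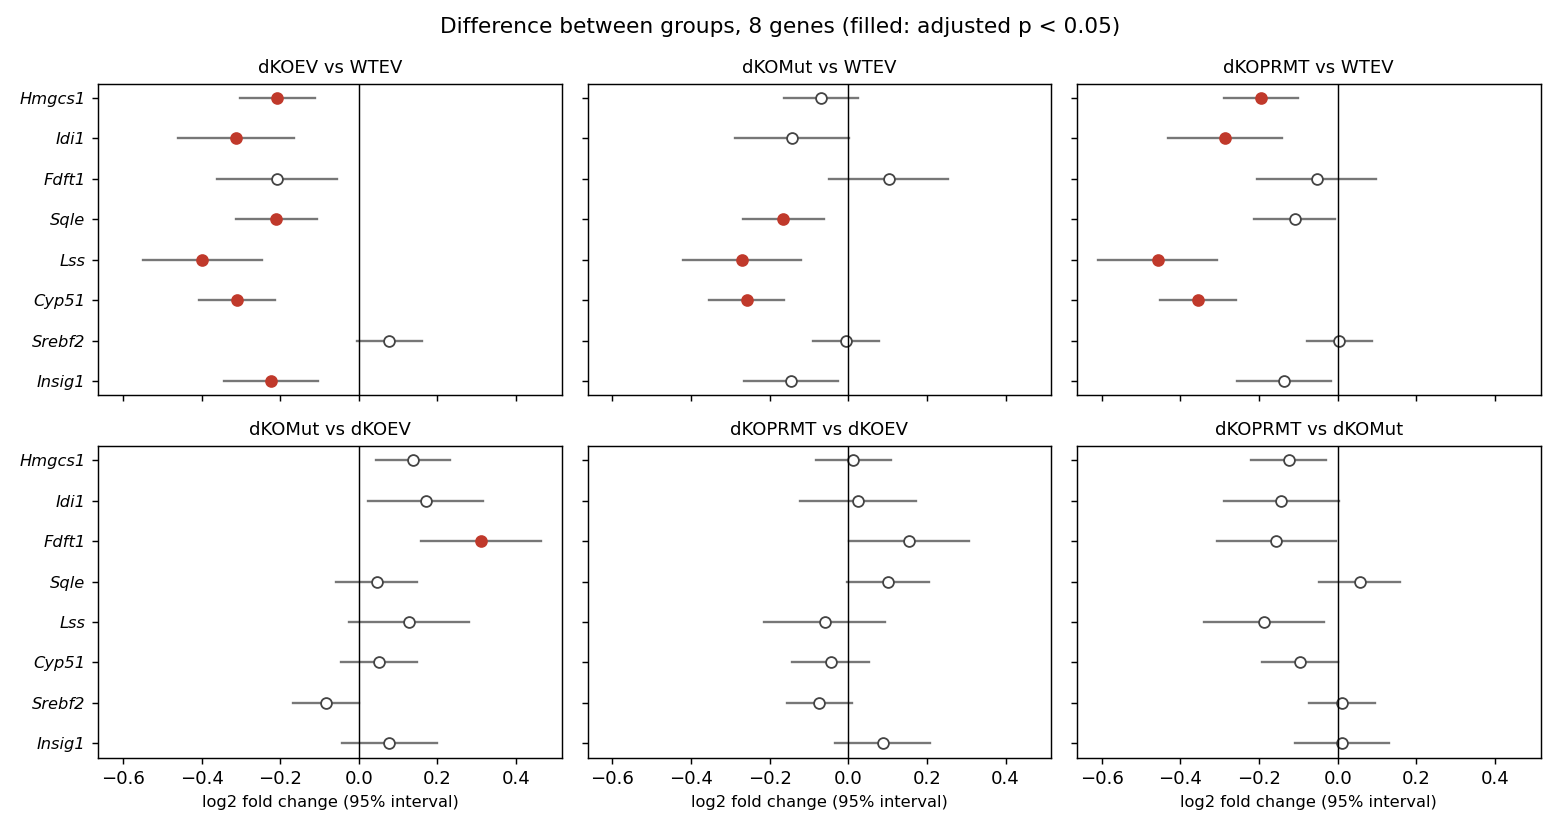
Log2 fold change (x axis) of each of the 8 genes (rows) in the 6 comparisons of groups of 2 libraries, with 95% intervals from the edgeR fit as lines; filled red points passed an adjusted p of 0.05 and open points did not. In dKOEV against WTEV 6 points are filled, all below 0, and in dKOPRMT against dKOEV and dKOPRMT against dKOMut none is filled.

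With the catalytically dead mutant, Fdft1 was the member that rose against dKOEV, 1 of 8, with 0 lower. The background was 4.24% of tested genes higher and 7.08% lower. The median over the 8 genes was 0.10, and 7 of 8 values were above 0. Fdft1 stood at 96.9 and 86.4 CPM in dKOMut against 74.9 and 73.2 CPM in dKOEV, a rise of 0.31 ± 0.08 (adjusted p = 0.00393) with no overlap. Without dKOMut replicate 1, its higher library, the value was 0.23 and not called (adjusted p = 0.123), which left 0 of the 8. Hmgcs1, at 281 and 270 CPM in dKOMut, lay above both dKOEV libraries with a difference of 0.14 ± 0.05 (adjusted p = 0.0516). It passed the threshold under 5 alternatives, 3 of them other scalings or count filters, and the count was then 2 of 8. Idi1 was at 101 and 89.8 CPM in dKOMut (0.17 ± 0.07, adjusted p = 0.136). At an unadjusted p under 0.05 there were 3 genes higher and 1, Srebf2, lower.

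A gene on the opposite strand limits what can be said of Fdft1. Of its 3697 exon bases, 773 are shared with Ctsb, a lysosomal protease of monocytes and macrophages. The library kit keeps strand, but no source used here gives the strand setting of the counting, so reads of the 2 genes may not be fully separated. Ctsb was at 1061 and 1100 CPM in dKOMut and at 1814 and 1948 CPM in dKOEV, a fall of 0.80 ± 0.03 (edgeR adjusted p = 1.42e-19), opposite in direction to Fdft1. In dKOEV against WTEV both genes were lower, Fdft1 without a call. Ctsb fell from 2259 and 2264 CPM by 0.27 ± 0.03 (edgeR adjusted p = 2.3e-07). The part of Ctsb reads in the lower Fdft1 value was not tested. Lss shares 381 of 6329 exon bases with 4930483K19Rik on the opposite strand, which had at most 3 counts in a library. The other 6 genes share no exon base with another annotated gene.

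The comparison of dKOPRMT with dKOEV asks what wild-type PRMT1 changed, and 0 of the 8 genes were called. DESeq2 and limma voom also called 0, and 1 gene, Fdft1, had an unadjusted p under 0.05. The background was 5.96% of tested genes higher and 8.67% lower, and the median over the 8 genes was 0.02. Cyp51 was at 189 and 187 CPM against 192 and 196 CPM in dKOEV, and its 95% interval ran from -0.14 to 0.05. For Hmgcs1, at 256 and 250 CPM, the interval ran from -0.08 to 0.11, and for Lss, at 68.4 and 63.4 CPM, from -0.21 to 0.09. Sqle was at 192 and 182 CPM (0.10 ± 0.05, adjusted p = 0.206) and Insig1 at 153 and 148 CPM (0.09 ± 0.06, adjusted p = 0.376), each with both libraries above those of dKOEV. Fdft1 was at 77.0 and 87.7 CPM (0.15 ± 0.08, adjusted p = 0.189).

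Catalytic activity separates dKOPRMT from dKOMut by design, although Prmt1 counts differed as well. Between them 0 of the 8 genes were called by edgeR, DESeq2 or limma voom, with a background of 1.43% higher and 1.68% lower. The median over the 8 genes was -0.11, and 3 genes, Hmgcs1, Lss and Fdft1, had an unadjusted p under 0.05, each lower in dKOPRMT. Lss was at 68.4 and 63.4 CPM in dKOPRMT and at 72.4 and 77.8 CPM in dKOMut, groups that did not overlap (-0.19 ± 0.08, adjusted p = 0.219, 95% interval -0.34 to -0.03). Hmgcs1 was also separate, at -0.12 ± 0.05 (adjusted p = 0.171, 95% interval -0.22 to -0.03). For Insig1 and Srebf2 the libraries overlapped and the values were 0.01 ± 0.06 and 0.01 ± 0.04. An effect of the mutation on these genes was not detected with 2 libraries a group, which does not show that the inserts act alike.

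Both PRMT1 groups were also set against WTEV, and all 3 comparisons with WTEV share its 2 libraries. In dKOPRMT 4 of 8 genes were lower and 0 higher, with a background of 12.2% lower and 11.0% higher. Lss (-0.46 ± 0.07, adjusted p = 8.68e-06), Cyp51 (-0.35 ± 0.05, 2.64e-07), Hmgcs1 (-0.19 ± 0.05, 0.0016) and Idi1 (-0.29 ± 0.07, 0.0025) fell. Srebf2 was at 0.00 ± 0.04 with a 95% interval from -0.08 to 0.09, so its level in dKOPRMT was within that range of WTEV. In dKOMut 3 of 8 were lower and 0 higher, with a background of 9.96% lower and 9.41% higher. These were Cyp51 (-0.26 ± 0.05, adjusted p = 6.35e-05), Lss (-0.27 ± 0.07, 0.00662) and Sqle (-0.16 ± 0.05, 0.0171).

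The calls for Lss and Cyp51 in dKOPRMT and for Cyp51 in dKOMut against WTEV held under all 15 alternatives. Without WTEV replicate 2, 2 of 8 genes were lower in dKOPRMT, with Hmgcs1 (adjusted p = 0.12) and Idi1 (0.0796) lost, and 1 of 8 in dKOMut, with Sqle (0.0807) and Lss (0.0633) lost. Without dKOMut replicate 1, 1 of 8 was lower in dKOMut, where Sqle was at adjusted p = 0.21 and Lss at 0.107. Idi1 in dKOPRMT also lost its call without dKOPRMT replicate 2 (adjusted p = 0.0859), and Sqle in dKOMut without WTEV replicate 1 (0.136).

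The other enzymes of the pathway were then taken as a list of 17 genes, all of them tested. Against WTEV, 7 of 17 fell in dKOEV and 0 rose, beside 7.00% lower and 8.44% higher over all tested genes. Of the list, 16 of 17 values were below 0, and the list's median was -0.13 against -5e-04 for all tested genes. Acat2, which supplies acetoacetyl-CoA, was at 83.1 and 82.2 CPM in WTEV and at 55.7 and 61.5 CPM in dKOEV (-0.49 ± 0.08, adjusted p = 1.08e-05). Its groups did not overlap, and its call held under all 15 alternatives. Fdps (-0.16 ± 0.04), Dhcr7 (-0.28 ± 0.07) and the X-linked Nsdhl (-0.32 ± 0.09) also fell. Each lost its call without 1 WTEV library, at adjusted p = 0.0521, 0.073 and 0.109, and 4 of 17 fell without either WTEV library.

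With the PRMT1 inserts most enzymes of the list lay above their dKOEV level, most of them without a call, and Por lay below it. In dKOMut every log2 fold change but that of Por was positive, and in dKOPRMT all but those of Por, Ebp and Msmo1. In dKOMut 5 of 17 were called higher than in dKOEV and 1 lower, and in dKOPRMT 3 were called higher and 1 lower. Over all tested genes 4.24% rose and 7.08% fell in dKOMut, and 5.96% rose and 8.67% fell in dKOPRMT, so the single gene lower is near the background share. Fdps, which makes farnesyl pyrophosphate, the branch point of sterol and isoprenoid synthesis, was at 373 and 378 CPM in dKOEV, 455 and 483 CPM in dKOMut and 469 and 463 CPM in dKOPRMT. It rose by 0.32 ± 0.04 with the mutant (adjusted p = 1.36e-07) and by 0.31 ± 0.04 with wild-type PRMT1 (2.12e-07), in comparisons that share their dKOEV libraries. Its 4 PRMT1 libraries also lay above both WTEV libraries, at 416 and 423 CPM. It was higher than in WTEV by 0.16 ± 0.04 in dKOMut (adjusted p = 0.00268) and by 0.15 ± 0.04 in dKOPRMT (0.00436). These calls were lost without dKOMut replicate 2 (adjusted p = 0.0968), and without WTEV replicate 1 or dKOPRMT replicate 1 (0.0553 and 0.0711). Hmgcs1, Lss and Cyp51 showed no called rise over dKOEV with either insert. Lbr, a sterol reductase of the nuclear envelope, rose by 0.19 ± 0.04 with the mutant (adjusted p = 0.000781) and by 0.23 ± 0.04 with wild-type PRMT1 (5.92e-05).

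The enzyme that fell with both inserts was Por, the reductase that hands electrons to Cyp51 and to squalene epoxidase. It was at 177 and 178 CPM in dKOEV, 140 and 147 CPM in dKOMut and 127 and 118 CPM in dKOPRMT, with no overlap between the 3 groups. It fell by 0.31 ± 0.05 with the mutant (adjusted p = 7.67e-05) and by 0.54 ± 0.05 with wild-type PRMT1 (1.5e-09). Between the inserts it was lower in dKOPRMT, at -0.23 ± 0.06 (adjusted p = 0.0105). It was the 1 enzyme of the 17 called in that comparison, beside 1.43% higher and 1.68% lower over all tested genes. Por serves all cytochromes P450 of the endoplasmic reticulum, so it is not a gene of sterol synthesis alone. The 5 rising enzymes in dKOMut were 3 with DESeq2, 2 in a fit of those groups alone and 3 without either WTEV library, dKOEV replicate 1 or dKOMut replicate 1, and 2 without dKOMut replicate 2. The 3 in dKOPRMT were 5 without dKOEV replicate 2. In the comparison of dKOPRMT with dKOMut, Por was not called without dKOMut replicate 2 or dKOPRMT replicate 2 (adjusted p = 0.166 and 0.28), and 2 enzymes were lower without dKOMut replicate 1.

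**Figure D3:**
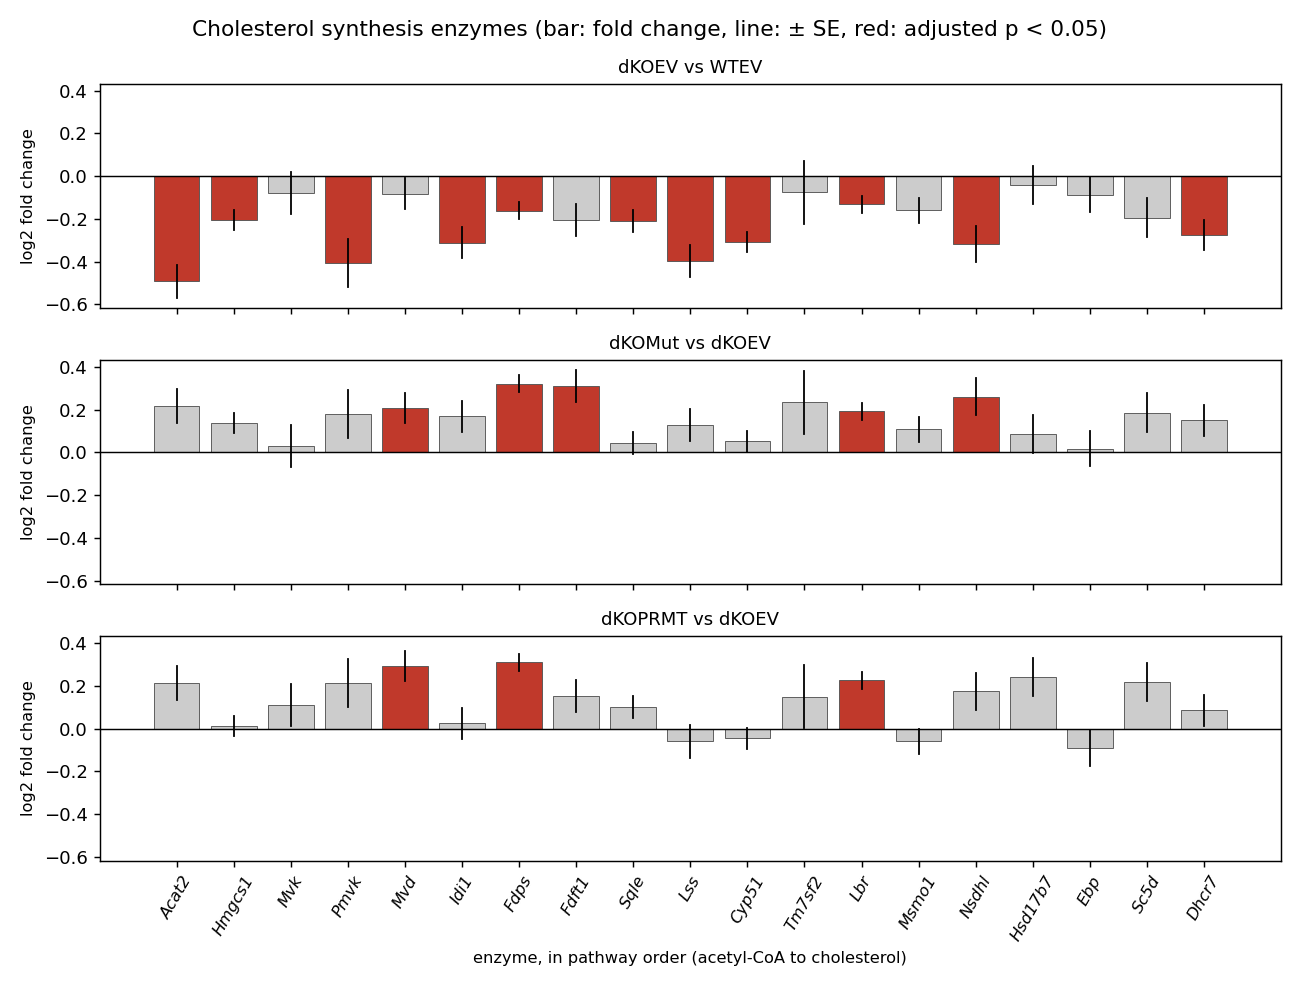
Log2 fold change (bars, y axis from a common scale, with ± SE as lines) of enzymes of sterol synthesis in the order of the pathway from acetyl-CoA to cholesterol (x axis), in 3 comparisons of groups of 2 libraries; red bars passed an adjusted p of 0.05. The bars shown all lie below 0 in dKOEV against WTEV, with Acat2 at -0.49 and Lss at -0.40, and Fdps is the tallest bar in both comparisons of an insert with dKOEV.

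The machinery that senses sterol and takes it up was taken as a list of 15 tested genes of SREBP control and sterol uptake. In dKOEV against WTEV 1 rose and 0 fell, near the background of 8.44% higher and 7.00% lower. It was Scap, the SREBP escort, at 79.4 and 79.7 CPM in WTEV and 96.2 and 90.6 CPM in dKOEV (0.23 ± 0.07, adjusted p = 0.021). That call was lost without either WTEV library or dKOEV replicate 1 (adjusted p = 0.113, 0.114 and 0.123), and 2 genes rose without dKOEV replicate 2. With either insert 0 of 15 were called against dKOEV by edgeR, DESeq2 and limma voom. At an unadjusted p under 0.05 there were 1 lower with wild-type PRMT1 and 1 higher and 1 lower with the mutant.

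Fatty acid synthesis genes, whose main regulator is the related factor SREBP1, fell in dKOEV in 8 of 12 tested genes, with 0 higher and a median of -0.23, beside 7.00% lower and 8.44% higher over all tested genes. Scd2, a desaturase, was at 822 and 791 CPM in WTEV and at 581 and 565 CPM in dKOEV (-0.49 ± 0.04, adjusted p = 3.97e-13). Its relative Scd1 was at 26.7 and 33.0 CPM in WTEV and at 11.0 and 11.4 CPM in dKOEV (-1.42 ± 0.16, adjusted p = 3.38e-08). Fads2 (-0.49 ± 0.06), Elovl6 (-0.41 ± 0.07) and the citrate carrier Slc25a1 (-0.41 ± 0.07) also fell, with no overlap between the groups, and these 5 calls held under all 15 alternatives.

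Against dKOEV, the called fatty acid genes rose with the mutant and went both ways with wild-type PRMT1. In dKOMut 4 of 12 rose against dKOEV and 0 fell, and in dKOPRMT 3 rose and 2 fell, beside a background of 4.24% higher and 7.08% lower with the mutant and 5.96% and 8.67% with wild-type PRMT1. Scd2 rose with both, at 637 and 643 CPM in dKOMut (0.16 ± 0.04, adjusted p = 0.00164) and at 665 and 674 CPM in dKOPRMT (0.23 ± 0.04, 1.11e-05), still below WTEV. Scd1 was at 11.6 and 9.55 CPM in dKOMut and was at 5.67 and 5.72 CPM in dKOPRMT, where it fell against dKOEV by 0.97 ± 0.18 (adjusted p = 0.000151). Fads2 was lower in dKOPRMT, at 102 and 101 CPM, than in dKOMut, at 126 and 127 CPM (-0.32 ± 0.06, adjusted p = 0.000438). Without dKOEV replicate 2, 7 of 12 rose in dKOMut. In dKOPRMT 5 rose without either WTEV library or dKOEV replicate 2, and 1 fell without dKOEV replicate 2 or either dKOPRMT library.

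Genes of sterol efflux and handling, many of them targets of the oxysterol receptors LXR, changed in both directions. In dKOEV against WTEV 4 of 15 tested genes rose and 5 fell, against 8.44% and 7.00% of all tested genes. Abca1, the exporter of cholesterol to apolipoprotein A-I, was at 18.2 and 14.6 CPM in WTEV and at 4.96 and 8.47 CPM in dKOEV (-1.27 ± 0.23, adjusted p = 9.1e-05). Abcg1, which exports sterol to lipoproteins, went the other way, at 84.3 and 86.0 CPM in WTEV and 111 and 104 CPM in dKOEV (0.33 ± 0.07, adjusted p = 0.00061). Npc1, the lysosomal cholesterol exporter, was at 138 and 132 CPM in WTEV and 173 and 162 CPM in dKOEV (0.31 ± 0.06, adjusted p = 0.000128). Without WTEV replicate 1, 2 genes rose, and without WTEV replicate 2, 3 fell.

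With either insert 7 of the 15 genes fell against dKOEV and 1, Apoe, rose. The background was 7.08% lower and 4.24% higher in dKOMut and 8.67% lower and 5.96% higher in dKOPRMT. In the same comparisons 8 of 12 monocyte and macrophage markers fell and 2 rose with each insert, and their part in the changes of these genes was not tested. Abcg1 was at 62.0 and 61.2 CPM in dKOMut (-0.80 ± 0.07, adjusted p = 5.89e-11) and at 74.0 and 78.7 CPM in dKOPRMT (-0.49 ± 0.07, 1.67e-06). It was higher in dKOPRMT than in dKOMut by 0.31 ± 0.07 (adjusted p = 0.00737), a call lost without either dKOMut library or dKOPRMT replicate 2 (0.0501, 0.0707 and 0.193). Lipa, the lysosomal lipase that frees cholesterol from its esters, fell by 0.54 ± 0.05 and 0.57 ± 0.05. Apoe, the apolipoprotein of macrophages, was at 72.7 and 81.3 CPM in dKOMut, 51.9 and 43.9 CPM in dKOPRMT and 31.8 and 40.5 CPM in dKOEV. It rose with the mutant by 1.08 ± 0.11 (adjusted p = 1.53e-09) and with wild-type PRMT1 by 0.40 ± 0.11 (0.0104). The second of these was lost without dKOEV replicate 1 or dKOPRMT replicate 1 (adjusted p = 0.166 and 0.25). It was lower in dKOPRMT than in dKOMut by 0.68 ± 0.10 (adjusted p = 3.65e-05). Of the 10 genes of the isoprenoid branch, which leads to dolichol, ubiquinone and protein prenylation, 0 were called in dKOEV against WTEV or in dKOMut against dKOEV by edgeR, DESeq2 or limma voom. At an unadjusted p under 0.05 there were 1 lower in dKOEV and, in dKOMut, 1 higher and 1 lower, which were called without dKOEV replicate 2. Dhdds, which builds the dolichol backbone, was called higher in dKOPRMT than in dKOEV (0.23 ± 0.07, adjusted p = 0.033) and than in WTEV (0.23 ± 0.07, 0.0179), and higher in dKOMut than in WTEV (0.22 ± 0.07, 0.0355). It was the single gene of 10 called in dKOPRMT against dKOEV and in dKOMut against WTEV, near the background of 5.96% and 9.41% higher. The call over dKOEV was lost without dKOEV replicate 1 or either dKOPRMT library (adjusted p = 0.225, 0.0527 and 0.324). The dKOPRMT call over WTEV was lost without either WTEV library or dKOPRMT replicate 2 (0.109, 0.0872 and 0.224). That of dKOMut over WTEV was lost with DESeq2 (adjusted p = 0.0544) and without any 1 library of either group (0.0895 to 0.167). Fntb, a subunit of protein farnesyltransferase, was lower in dKOPRMT than in WTEV (-0.40 ± 0.15, adjusted p = 0.0471), a call lost with DESeq2 (0.0727), with limma voom (0.0511) and without any 1 library of either group (0.0656 to 0.326). In dKOPRMT against dKOMut 0 of the 10 were called by edgeR.

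Marker genes of cell types and of division were counted beside these results. Over all tested genes, 8.44% were higher and 7.00% lower in dKOEV against WTEV. Against dKOEV the shares were 4.24% higher and 7.08% lower in dKOMut, and 5.96% higher and 8.67% lower in dKOPRMT. In dKOEV against WTEV, 12 of 15 tested neutrophil markers rose and 1 fell, and their summed level was 17480 to 17520 CPM in WTEV, 23510 to 24550 in dKOEV, 30870 to 31480 in dKOMut and 30680 to 30990 in dKOPRMT. Against dKOEV, every called neutrophil marker rose in dKOMut. In dKOPRMT Retnlg (-1.71), Mmp9 (-1.425) and Mmp8 (-0.185) fell on the log2 scale, and every other called neutrophil marker rose, so the sums do not describe each marker. No tested or untested neutrophil marker was at 0 counts, and Ly6g had no row. Of 7 tested mast cell and basophil markers 6 fell, and their summed level was 1229 to 1276 CPM in WTEV, 651 to 670 in dKOEV, 806 to 807 in dKOMut and 435 to 446 in dKOPRMT. Of that list Tpsab1 was at 0 counts in every library and Tpsb2 at 9 or fewer. Of 18 proliferation genes 5 fell in dKOEV and 0 rose, at 4591 to 4615 CPM in WTEV and 4236 to 4333 in dKOEV. In dKOPRMT 8 of the 18 rose against dKOEV, with a sum of 4757 to 4819 CPM. In dKOMut 1 rose, near the background share, with a sum of 4549 to 4586 CPM. Monocyte and macrophage markers also moved. Of 12 tested 7 fell in dKOEV against WTEV and 0 rose, and with either insert 8 fell and 2 rose against dKOEV. Their summed level was 7511 to 7626 CPM in WTEV, 6931 to 7699 in dKOEV, 6618 to 7117 in dKOMut and 6451 to 6490 in dKOPRMT, and none was at 0 counts in a library. Lpl, a lipase of macrophages, fell by 0.86 ± 0.04 in dKOEV against WTEV, and by 1.23 ± 0.04 in dKOMut and 1.21 ± 0.04 in dKOPRMT against dKOEV. Of 5 tested erythroid markers 3 fell in dKOEV, and against dKOEV 1 fell in dKOMut and 3 in dKOPRMT, with 0 higher. They summed to 61.5 to 63.8 CPM in WTEV, 31.8 to 33.7 in dKOEV, 23.6 to 26.2 in dKOMut and 15.4 to 18.4 in dKOPRMT, and Hba-a1, Hbb-bs and Hbb-bt were at 0 counts in every library. Of 8 megakaryocyte markers 2 rose and 0 fell in dKOEV, and against dKOEV 3 fell in dKOMut and 5 in dKOPRMT. They summed to 297 to 314 CPM in WTEV, 348 to 362 in dKOEV, 224 to 226 in dKOMut and 194 to 199 in dKOPRMT. Of 10 stem and progenitor markers 3 rose and 5 fell in dKOEV, and their summed level was 1280 to 1304 CPM in WTEV, 1106 to 1145 in dKOEV, 1060 to 1090 in dKOMut and 992.3 to 1011 in dKOPRMT. The summed level of the 8 sterol genes was 1587 and 1602 CPM in WTEV, 1430 and 1425 in dKOEV, 1500 and 1465 in dKOMut and 1453 and 1408 in dKOPRMT. The part of these marker changes in the sterol results was not tested.

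**Figure D4:**
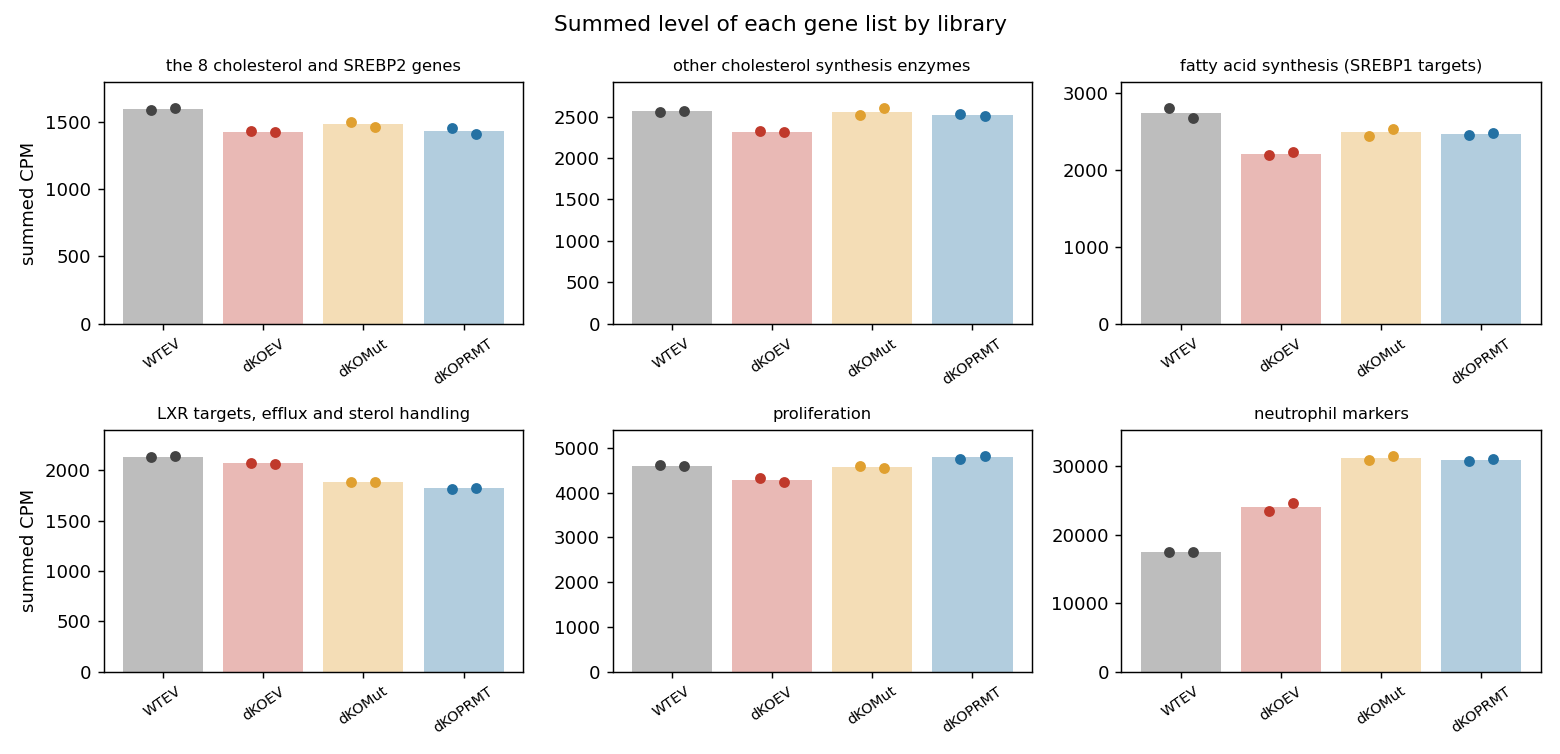
Summed CPM (y axes from 0, each panel with its own scale) of 6 gene lists in each library, with 1 point per library and bars at the group mean. The 8 sterol genes are highest in WTEV, at 1587 and 1602 CPM, whereas the summed neutrophil markers are lowest there, at 17520 and 17480 CPM.

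Within the 8 genes, the variation over the libraries was largely shared by the enzymes and not by Srebf2. The correlation of a gene's centred log2 level with the mean of the other 7, over the 8 libraries, was 0.92 for Hmgcs1, 0.90 for Idi1, 0.89 for Cyp51, 0.88 for Lss, 0.78 for Insig1 and 0.71 for Sqle. It was 0.35 for Fdft1, whose highest group was dKOMut, and -0.49 for Srebf2. The closest pairs were Lss with Cyp51 (0.94) and Hmgcs1 with Idi1 (0.94), and the most opposed pair was Fdft1 with Srebf2 (-0.65). All points share their library and its depth, and the group differences described above enter these values, which are given without a test. The mean of the 8 centred levels was 0.12 and 0.15 in WTEV, -0.08 and -0.09 in dKOEV, 0.04 and -0.01 in dKOMut and -0.05 and -0.08 in dKOPRMT.

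Outside the lists, 9801 genes averaged at least 5 CPM, and the 6 of them most like that mean over the 8 libraries were 1190002N15Rik (r = 0.99), the ribosomal protein gene Rpl39 (0.98), the acetylhydrolase subunit Pafah1b2 (0.98), the growth factor Hdgf (0.97), the RNA methyltransferase Nsun2 (0.97) and Fam46a (0.96). The listed sterol enzymes were left out of this search, so none of those could appear. The differences of the 6 genes in dKOEV against WTEV were -0.58, -0.35, -0.24, -0.12, -0.23 and -0.44 on the log2 scale in that order. Each was picked for its likeness to the mean, so these values are a description.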

How the data were processed

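RNA was measured in 8 libraries, 4 groups of 2. Groups follow the sample titles, since all libraries, wild-type included, carry a dKO source label. The authors deposited 1 table of raw counts per gene and each gene's exon length. Tools named in the submitters' processing notes are Trim Galore 0.6.6, STAR 2.7.6a and featureCounts, with GRCm38 (mm10). The strand setting of the counting is not stated there. The counts were fitted in R 4.3.3 by edgeR 4.0.16, with filterByExpr, TMM scaling and the robust quasi-likelihood test on group over the 8 libraries (4 residual and a median of 30.4 prior degrees of freedom). Adjusted p-values are Benjamini-Hochberg over 12744 genes, with a threshold of 0.05. The common biological coefficient of variation was 0.0637. CPM uses TMM-scaled library sizes, and each standard error is the fold change divided by the root of F. The steps were tested on simulated data. Replicates differed by more than sampling noise (chi-square per degree of freedom 3.64 to 6.42). Named genes were the 8, up to 5 called members of each lipid list with the smallest p, and the 6 most alike genes by correlation of log2 CPM (prior count 2). Some genes that this rule names are not reported here. Ctsb was added after its values were seen. The 8 genes, the lists and the tests were chosen with earlier results of these data known. Alternatives were RLE scaling, 2 count filters, DESeq2 1.42.0, voom in limma 3.58.1, fits of 2 groups, a replicate block and each library left out. List counts under them were added after the data were seen.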

Additional observations from a re-analysis of the deposited data

How the results depend on the processing

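Across the 8 genes and 6 comparisons, 720 alternative values were computed, and 0 changed direction while called. Of these 696 kept their side of the threshold, 13 lost it and 11 gained it. With single libraries left out, the number of the 8 genes called ran from 3 to 7 in dKOEV against WTEV, 0 to 2 in dKOMut against dKOEV, 2 to 5 in dKOPRMT against WTEV and 1 to 3 in dKOMut against WTEV, and it was 0 throughout in the other 2 comparisons. RLE size factors, no filter beyond 1 count and a minimum of 10 counts in 2 libraries each gave 2 genes in dKOMut against dKOEV in place of 1. With single libraries left out, the median over the 8 genes ran from -0.277 to -0.206 in dKOEV against WTEV, from 0.0732 to 0.122 in dKOMut against dKOEV, from -0.0165 to 0.0439, on both sides of 0, in dKOPRMT against dKOEV, from -0.118 to -0.065 in dKOPRMT against dKOMut, from -0.235 to -0.126 in dKOPRMT against WTEV and from -0.175 to -0.0703 in dKOMut against WTEV. With the replicate block the 8 genes gave 6, 0, 1, 0, 4 and 3 calls in the 6 comparisons, as without it, and the replicate numbers did not pair the libraries, since deviations of same-numbered libraries correlated at -0.05 to 0. Over all tested genes, the 1967 calls in dKOEV against WTEV were 1209 and 1149 without WTEV replicate 1 and 2, the 1864 in dKOPRMT against dKOEV were 1133 and 1058 without dKOPRMT replicate 1 and 2, the 396 in dKOPRMT against dKOMut were 171 to 244 without single libraries of those groups, and the 2955 in dKOPRMT against WTEV were 1954 without dKOPRMT replicate 1. Depth was 15531344 counts or more a library, and each group held 2 libraries, which limits the size of difference that could be called.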
